A study of Mus musculus with 18 samples.

Results

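The genes described here carry glutamate and glutamine through the glutamate-glutamine cycle of astrocytes, and they were chosen by name: Slc1a1, Slc1a2, Slc1a3, Slc1a4, Slc1a5, Slc38a3, Glul, Glud1 and Slc25a18. These 9 genes were 9 of the 51912 genes in the count table. All 9 passed the filter of at least 10 read pairs over the 18 libraries, as did 24495 genes in all.

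RNA was sequenced from primary cortical astrocyte cultures of mice hemizygous for the transgene Tg(Aldh1l1-EGFP/Rpl10a)JD130Htz (B6;FVB stock, bred to C57BL/6J), made from male and female pups at postnatal day 0. In this line the Aldh1l1 promoter drives a ribosomal protein fused to green fluorescent protein, so that tagged ribosomes with their bound mRNA can be captured with an antibody (translating RNA affinity purification, here IP). Cultures grew for 14 days, were replated for 6 days, spent 24 h without serum, and then received either 50 mM ethanol or control medium for 24 h, both serum-free. The IP was sequenced from 6 control and 6 ethanol dishes, and an aliquot of the lysate taken before the antibody step (input) from the dishes numbered 4 to 6 of each treatment. All groups therefore carried the transgene and were serum-starved, and each input library shared its dish with an IP library. Nothing stated that the dishes came from separate cultures, so the p-values measure the spread between dishes. The tag marks cells in which the Aldh1l1 promoter is active, and IP reports ribosome-bound RNA, not protein.

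In the brain, astrocytes take up most of the glutamate that neurons release, through sodium-coupled transporters of the Slc1 family in their plasma membrane. Glutamine synthetase turns part of that glutamate into glutamine, which leaves the astrocyte through transporters such as Slc38a3 and is returned to neurons. The rest can enter mitochondria, where glutamate dehydrogenase feeds it into the citric acid cycle.

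Read pairs on genes numbered 74239854 to 132810705 per library (median 84119135). Aldh1l1 was higher in IP than in input (log2 fold change 1.05, adjusted p = 5.45e-51). Of 7 astrocyte markers 6 were higher in IP and S100b was lower, where 25.2% of all genes tested were higher and 25.8% lower. Of 7 neuronal markers 4 were higher and 1 lower, and of 7 oligodendrocyte lineage markers 2 were higher and 4 lower. Of 6 microglial markers 0 were higher and 5 lower. Of 7 vascular and meningeal markers tested 1 was higher and 5 lower. Rpl10a itself, whose count cannot tell the native gene from the transgene, was lower in IP by a log2 fold change of -0.53. The summed level of the astrocyte markers was 812 to 842 CPM (read pairs per 1000000 pairs on genes, with TMM scaling) in input and 1290 to 1397 CPM in IP. Microglial markers summed to 39.3 to 51.7 CPM in input and 6.37 to 9.14 CPM in IP. Neuronal markers summed to 101 to 112 CPM in input and 122 to 141 CPM in IP. Most of that sum was Stmn2, at 78.2 to 112 CPM, followed by Tubb3, at 12.6 to 21.7 CPM, and 3 of the 7 markers, Rbfox3, Snap25 and Nefl, averaged under 1 CPM in every group. Oligodendrocyte lineage markers summed to 37.0 to 57.1 CPM over all libraries. Most of that sum was Olig2, at 29.7 to 32.4 CPM in input and 43.5 to 51.5 CPM in IP. Mbp averaged 4.39 CPM in input and 1.80 CPM in IP, and 3 of the 7 markers, Mog, Mag and Sox10, averaged under 1 CPM in every group.

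On GRCm38 with GENCODE M21 gene models, the 9 protein-coding genes lay on 9 different chromosomes. Slc1a3 spanned chr15:8634124-8710764 on the minus strand, Slc1a2 chr2:102658659-102790784 and Slc1a1 chr19:28835049-28913960. Slc1a4 spanned chr11:20302180-20332713 and Slc38a3 chr9:107650634-107669530, both on the minus strand, and Slc1a5 chr7:16781340-16798274. Glul spanned chr1:153899944-153909723, Glud1 chr14:34310727-34345265 and Slc25a18 chr6:120773578-120794336. The counts were made without regard to strand, and pairs that touched exons of more than 1 gene were left uncounted. This mattered for Slc1a1, of whose exon bases 31.9% were shared with 4430402I18Rik on the opposite strand. Slc1a1 had 1718 read pairs over the 18 libraries, against 3111 when only its own strand was counted. For the other 8 genes the count by strand was 97.1% to 103% of the unstranded count.

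RefSeq promoter windows (GRCm38.p6) were at hand for 7 of the 9 genes, without Slc1a5 and Slc38a3. The last 120 bases before the annotated start are shown for Slc1a3 and Slc1a4, both higher after ethanol, and for Glud1, whose ethanol change did not pass the test, since these windows hold no annotated exon. Capitals mark the CCAAT box (CCAAT) and the GC box (GGGCGG), each read on both strands.
Slc1a3, chr15:8710808-8710927, minus strand: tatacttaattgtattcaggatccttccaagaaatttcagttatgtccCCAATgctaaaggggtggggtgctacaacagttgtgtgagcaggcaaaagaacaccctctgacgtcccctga
Slc1a4, chr11:20332714-20332833, minus strand: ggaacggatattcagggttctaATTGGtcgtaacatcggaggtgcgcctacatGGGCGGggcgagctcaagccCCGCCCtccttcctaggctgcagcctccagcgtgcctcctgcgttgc
Glud1, chr14:34310607-34310726, plus strand: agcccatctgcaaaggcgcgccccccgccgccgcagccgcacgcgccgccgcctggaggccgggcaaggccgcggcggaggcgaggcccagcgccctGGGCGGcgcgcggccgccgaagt
Base composition differed widely among these windows. Over the 250 bases before the start, Slc1a3 had 44.8% G and C and 2 CpG, Slc1a4 64.8% and 16 CpG, and Glud1 82% and 46 CpG, against medians of 52.4% and 6 CpG over 32851 promoters. Within the same 250 bases Slc1a3 held 3 CCAAT boxes and 1 GC box, Slc1a4 held 2 and 3, and Glud1 held 0 and 3. Among all promoters, 33.8% held a CCAAT box and 32.7% a GC box. Over that length Glul, which was lower after ethanol, had 64.8% G and C, 2 CCAAT boxes and 1 GC box. Slc1a2 and Slc25a18, also higher after ethanol, each held 0 CCAAT boxes and 0 GC boxes there. Slc1a1, which gave no call, held 0 CCAAT boxes and 1 GC box. A match describes the letters only.

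The first question was how strongly the cultures expressed each gene. Expressed per kilobase of exon, so that genes of different length can be compared, the order was the same in all 4 groups. Glul was highest, then Glud1, Slc25a18, Slc1a3, Slc1a4, Slc38a3, Slc1a2, Slc1a5 and Slc1a1. Within a group, the ranges over libraries of neighbouring genes in this order never overlapped. In IP control dishes the mean level was 195.6 CPM per kilobase for Glul and 78.6 for Glud1, and 170 and 580 of the genes tested stood above them. The level there was 53.2 CPM per kilobase for Slc25a18, 41.0 for Slc1a3 and 24.2 for Slc1a4. It was 12.9 for Slc38a3, 9.05 for Slc1a2, 0.774 for Slc1a5 and 0.137 for Slc1a1. The 9 genes thus spread widely in abundance, with 15640 genes above Slc1a1. With the length of the longest transcript in place of all exons, Slc1a3 and Slc25a18 changed places, as the all-exon length of Slc1a3 is 8537 bases and its longest transcript 4435.

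**Figure D1:**
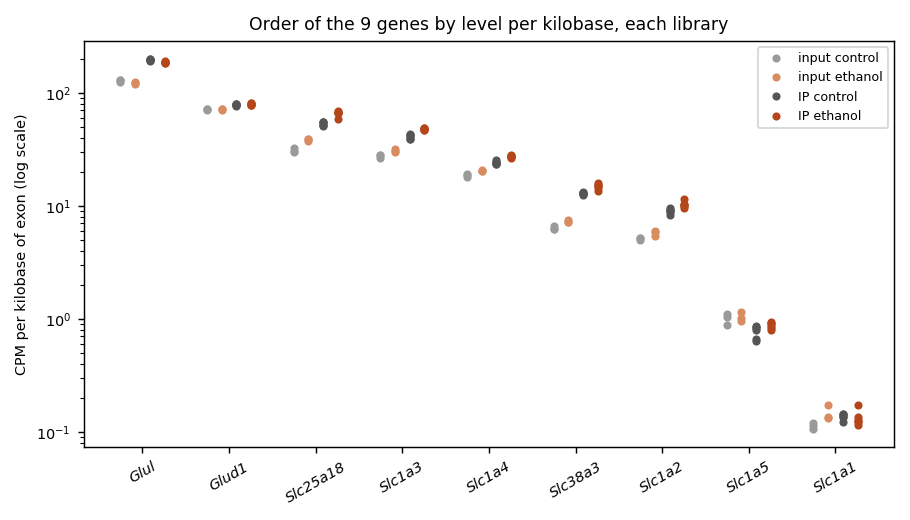
Level of each gene in each of the 18 libraries, in CPM per kilobase of exon on a log axis, with colours for the 4 groups. Glul sits at the top in every group (195.6 CPM per kilobase in IP control) and Slc1a1 at the bottom (0.137).

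The balance between related genes was then set side by side. Slc1a3, which encodes the glutamate transporter GLAST, exceeded Slc1a2, which encodes GLT-1, by a per-kilobase ratio of 4.54 ± 0.180 (SD, n = 6) in IP control and 4.67 ± 0.260 (n = 6) in IP ethanol. In input the ratio was 5.41 ± 0.111 (n = 3) in control and 5.37 ± 0.146 (n = 3) in ethanol dishes. The ranges of control and ethanol overlapped in both fractions, while every input library had a higher ratio than every IP library. The size of this ratio depends on the length used. Over the 18 libraries, Slc1a3 and Slc1a2 stood at 39.4 and 8.25 CPM per kilobase of all exons. Per kilobase of the longest transcript, they stood at 75.8 and 9.34. Glul exceeded Glud1 by a ratio of 2.49 ± 0.0450 (n = 6) in IP control and 2.36 ± 0.0404 (n = 6) in IP ethanol, and these ranges did not overlap. In input the ratio was 1.80 ± 0.0565 (n = 3) in control and 1.70 ± 0.0504 (n = 3) in ethanol dishes. These input groups of 3 libraries nearly touched, with 1.740 as the lowest control and 1.733 as the highest ethanol value. The differences in these ratios were not tested. Slc1a4 exceeded Slc1a5 by a ratio of 31.7 ± 4.21 (n = 6) in IP control and 18.7 ± 2.20 (n = 3) in input control. With the longest transcript, the level of Slc1a5 over all libraries was 1.325 in place of 0.891 CPM per kilobase, while that of Slc1a4 stayed at 23.7.

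The second question was whether 24 h of ethanol changed these RNAs on tagged ribosomes. In IP, 5 of the 9 genes rose, Slc1a3, Slc1a2, Slc1a4, Slc38a3 and Slc25a18, and 1 fell, Glul. Of all genes tested 21.4% were called in either direction, 11.9% higher and 9.48% lower. The changes were small, with the rises between 13.6% and 24.6%. The median log2 fold change was 0.19 over the 9 genes and 0.01 over all genes tested. For the 5 genes that rose every ethanol library exceeded every control library, whereas treatments stood apart in 9.96% of all genes tested, and for the other 4 members they overlapped.

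The astrocytic glutamate transporters both rose. Slc1a3, the main uptake system of immature and cultured astrocytes, had a lowest, median and highest level of 332, 353 and 369 CPM in 6 IP control libraries and 399, 410 and 415 CPM in 6 ethanol libraries. Every ethanol library lay above every control library (log2 fold change 0.23, SE 0.0242, adjusted p = 3.81e-11). In input the 3 control libraries had 225, 241 and 240 CPM and the 3 ethanol libraries 263, 256 and 271 CPM, again with no overlap (log2 fold change 0.16, SE 0.0230, adjusted p = 7.32e-10). Slc1a2, the transporter that carries most forebrain uptake in the adult, had 109, 120 and 126 CPM in IP control and 127, 133 and 150.5 CPM in IP ethanol. Its groups came close to touching but did not overlap (log2 fold change 0.19, SE 0.0348, adjusted p = 0.000222). The highest value was that of ethanol replicate 1, and without that library the log2 fold change was 0.16 with the call kept. In input Slc1a2 had 65.6, 67.8 and 67.5 CPM in control and 76.6, 71.1 and 78.9 CPM in ethanol libraries (log2 fold change 0.17, SE 0.0288, adjusted p = 2.3e-07).

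Slc1a1, which encodes the largely neuronal transporter EAAC1, was scarce and gave no call. Its lowest, median and highest levels were 1.001, 1.14 and 1.19 CPM in IP control and 0.943, 1.05 and 1.44 CPM in IP ethanol. These groups overlapped (log2 fold change -0.02, 95% interval -0.27 to 0.22, adjusted p = 0.934). In input the control libraries had 0.993, 0.931 and 0.883 CPM and the ethanol libraries 1.44, 1.09 and 1.12 CPM. The input groups did not overlap, but with 78 to 125 read pairs per library the difference did not pass the test (log2 fold change 0.37, SE 0.191, adjusted p = 0.207). Without ethanol replicate 4, the highest of them, it was 0.24 (adjusted p = 0.598). Counted on its own strand, the log2 fold change was 0.04 in IP (adjusted p = 0.81) and 0.30 for input (adjusted p = 0.171).

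**Figure D2:**
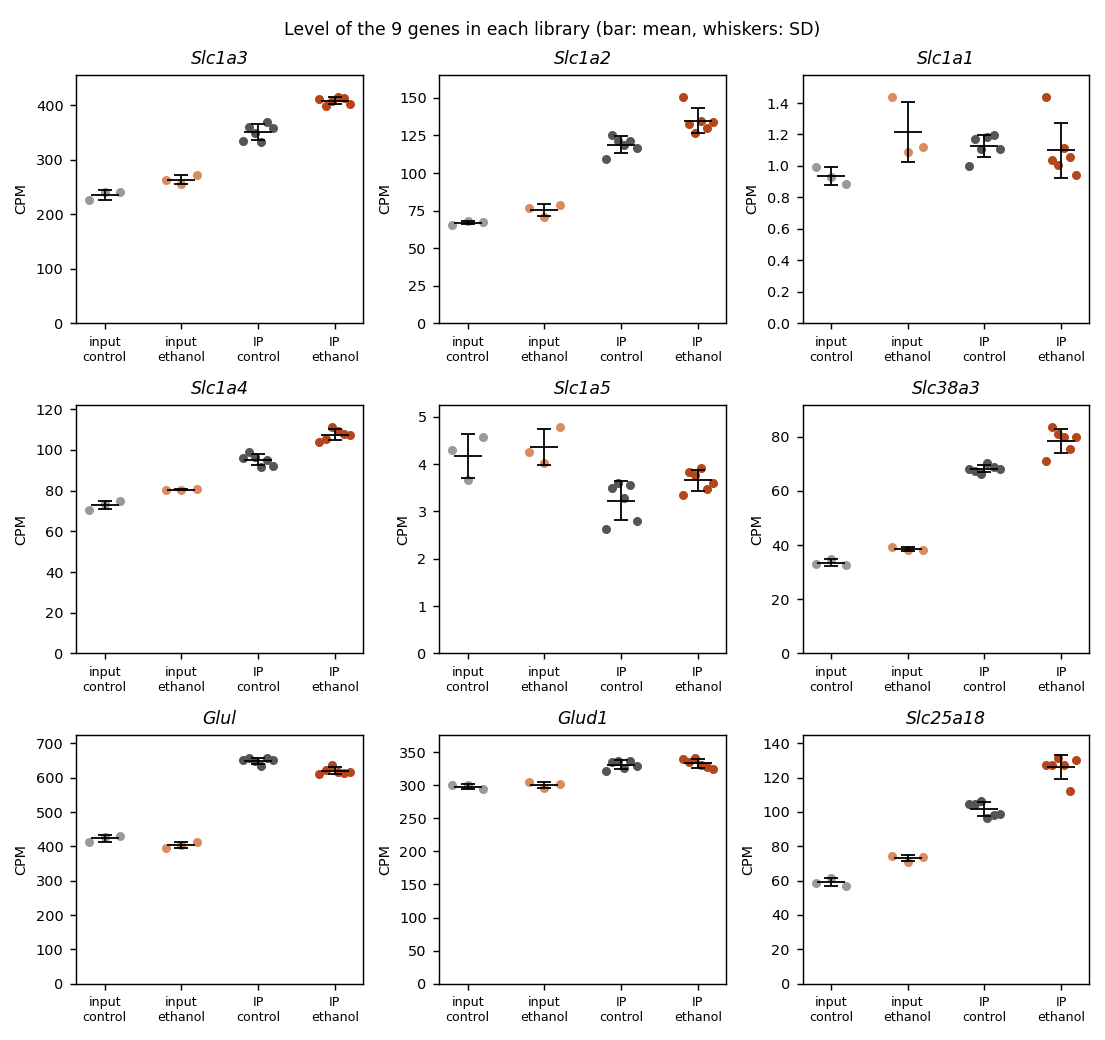
Level of each of the 9 genes in CPM (each panel from 0), with a point per library, a bar for the group mean and whiskers for the SD, for input (3 control, 3 ethanol) and IP (6 control, 6 ethanol). Ethanol points lie above all control points in both fractions for Slc1a3 (399 to 415 against 332 to 369 CPM in IP), Slc1a2, Slc1a4, Slc38a3 and Slc25a18, and Glud1 shows no such step.

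The neutral amino acid exchangers of the same family differed in abundance and in how well they could be measured. Slc1a4, or ASCT1, which exchanges serine and other small neutral amino acids, had 91.8, 95.4 and 99.0 CPM as lowest, median and highest in IP control and 104, 108 and 111 CPM in IP ethanol. The groups did not overlap (log2 fold change 0.18, SE 0.0255, adjusted p = 6.44e-08). In input it had 70.7, 73.3 and 74.9 CPM in control and 80.4, 80.1 and 80.7 CPM in ethanol libraries, also apart (log2 fold change 0.14, SE 0.0281, adjusted p = 3.24e-05). Slc1a5, or ASCT2, which exchanges glutamine, had 2.64, 3.40 and 3.596 CPM in IP control and 3.35, 3.68 and 3.91 CPM in IP ethanol. These ranges overlapped, and its log2 fold change of 0.19 was as large as that of Slc1a4 but had an SE of 0.0775 and did not pass the test (adjusted p = 0.0788). Leaving out each IP library in turn gave log2 fold changes from 0.13, without control replicate 1 (adjusted p = 0.29), to 0.22, without control replicate 5, where it passed (adjusted p = 0.0494). In input Slc1a5 had 4.30, 3.66 and 4.56 CPM in control and 4.27, 4.03 and 4.78 CPM in ethanol libraries (log2 fold change 0.06, 95% interval -0.14 to 0.25, adjusted p = 0.809).

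Slc38a3, the SNAT3 system that moves glutamine across the astrocyte membrane, rose in both fractions. Its lowest, median and highest levels were 66.3, 68.3 and 70.4 CPM in IP control and 71.1, 79.9 and 83.5 CPM in IP ethanol. The groups did not overlap (log2 fold change 0.21, SE 0.0289, adjusted p = 6.51e-08). In input it had 33.0, 34.9 and 32.7 CPM in control and 39.4, 38.2 and 38.3 CPM in ethanol libraries, also apart (log2 fold change 0.20, SE 0.0380, adjusted p = 4.82e-06).

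Among the metabolic genes, the mitochondrial glutamate carrier Slc25a18 had the largest called change of the 9. Its lowest, median and highest levels were 96.7, 102 and 106 CPM in IP control and 112, 127 and 132 CPM in IP ethanol. All ethanol libraries exceeded all control libraries (log2 fold change 0.32, SE 0.0306, adjusted p = 2.7e-10), a change larger than that of 85.7% of the genes called in IP. In input it had 58.7, 61.4 and 56.9 CPM in control and 74.3, 71.0 and 73.9 CPM in ethanol libraries (log2 fold change 0.30, SE 0.0297, adjusted p = 7.98e-22). The low value of 112 CPM in IP was that of ethanol replicate 5, without which the log2 fold change was 0.35.

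Glul, glutamine synthetase, was the exception in direction. It had a lowest, median and highest level of 634, 651 and 659 CPM in IP control and 612, 616 and 638 CPM in IP ethanol. The groups overlapped slightly, and the level fell by 4.2%, which passed the test narrowly (log2 fold change -0.06, SE 0.0218, adjusted p = 0.0342). In input it had 412, 428 and 429 CPM in control and 395, 404 and 413 CPM in ethanol libraries, again overlapping (log2 fold change -0.07, SE 0.0226, adjusted p = 0.0146). In IP 0.0382% of the genes called had a smaller change, and in input 2.97%, the median size of a called change being 0.15 on the log2 scale in IP. The call was lost in IP without control replicate 5 (adjusted p = 0.0658), ethanol replicate 1 (0.0587) or ethanol replicate 4 (0.0766), and in input without control replicate 5 (0.117), control replicate 6 (0.113) or ethanol replicate 4 (0.148). It was also lost in IP within dishes 4 to 6 (adjusted p = 0.059) and within dishes 1 to 3 (0.293).

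Glud1, the mitochondrial glutamate dehydrogenase, did not pass the test in either fraction. It had a lowest, median and highest level of 321, 332 and 337 CPM in IP control and 325, 332 and 342 CPM in IP ethanol. The groups overlapped almost wholly, and the 95% interval of the log2 fold change ran from -0.03 to 0.06 (adjusted p = 0.671). In input it had 299.76, 300.03 and 293.75 CPM in control and 304.2, 295.5 and 301.8 CPM in ethanol libraries (interval -0.04 to 0.05, adjusted p = 0.886). At this depth a change of Glud1 as large as that of Slc1a3 lay outside both intervals. Its processed pseudogene Glud-ps held 247 read pairs over all libraries against 500671 for Glud1.

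In input the calls fell on 6 of the 9 genes, 5 higher and 1 lower, in a fraction where 15.0% of all genes tested were called, 7.21% higher and 7.78% lower. The median log2 fold change was 0.16 over the 9 genes and -0.00 over all genes tested. The treatments stood apart for 6 genes, the 5 that rose and Slc1a1, and for 27.1% of all genes tested. Since 3 of the 6 dishes per treatment gave both fractions, the IP and input responses were not independent measurements.

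**Figure D3:**
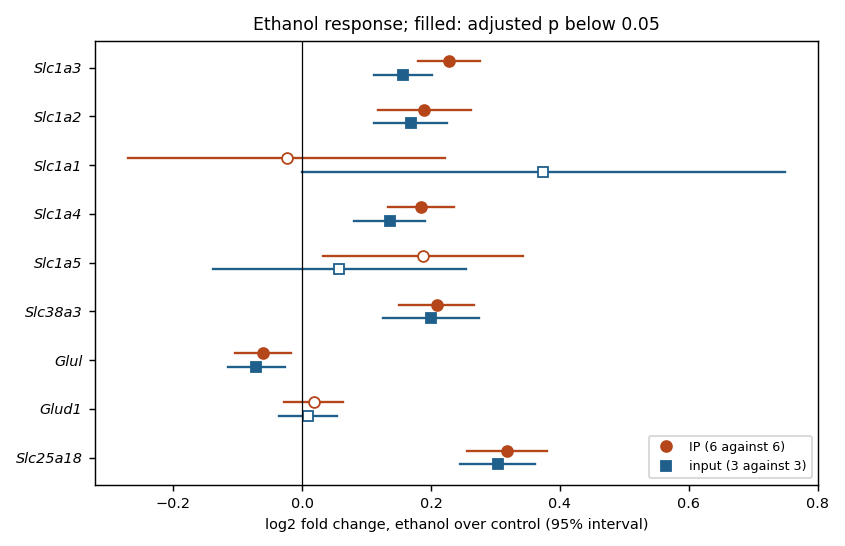
Log2 fold change of ethanol over control for the 9 genes in IP (circles) and input (squares), with 95% intervals and filled symbols where the adjusted p was below 0.05. Slc25a18 lies farthest right among the filled symbols (0.32 in IP, 0.30 in input), Glul lies left of 0 in both, and the intervals of Slc1a1 and Slc1a5 are wide.

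Whether ethanol acted differently on total and ribosome-bound RNA was asked with an interaction term. No member passed (0 of 9), nor did any gene tested, the share called being 0.00%. By the same edgeR test 1459 genes had an unadjusted p below 0.05, with none of the 9 genes among them in this fit without a dish term, and DESeq2 called 2 genes. When dish was added as a blocking term and only the 12 libraries from dishes sequenced in both ways were fitted, 0.416% of genes were called and again 0 of the 9. In the fit without the dish, the difference between fractions (IP minus input) was 0.06 for Slc1a3 (95% interval -0.02 to 0.14), 0.04 for Slc1a4 (-0.05 to 0.12) and 0.01 for Slc1a2 (-0.13 to 0.15). It was 0.00 for Slc25a18 (-0.10 to 0.11), -0.00 for Slc38a3 (-0.10 to 0.10) and -0.00 for Glul (-0.07 to 0.07). For the scarce Slc1a1 the interval was wide, from -0.84 to 0.02. In the blocked fit it was 0.10 for Slc1a4 (0.02 to 0.18, adjusted p = 0.486), 0.08 for Slc1a3 (0.01 to 0.14, adjusted p = 0.52) and -0.52 for Slc1a1 (-1.02 to -0.01, adjusted p = 0.624). These 3 of the 9 genes had an unadjusted p below 0.05 in that fit, among 1897 genes in all, and none of the 3 passed after adjustment. For the other 6 genes the blocked interval included 0, running from -0.07 to 0.09 for Slc1a2 and from -0.04 to 0.12 for Slc25a18, for example.

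Some markers of other cells also differed after ethanol. In IP, calls fell on 1 of 6 microglial, 2 of 7 neuronal, 1 of 7 oligodendrocyte and 2 of 7 vascular and meningeal markers tested. In input these counts were 1, 2, 2 and 1, in the same order. Of all genes tested, 21.4% were called in IP and 15.0% in input. Vascular and meningeal markers summed to 1454 to 1528 CPM in input control and 1057 to 1124 CPM in input ethanol libraries, and to 1670 to 1805 CPM in IP control and 1095 to 1296 CPM in IP ethanol libraries. Acta2, a smooth-muscle actin, made up 71.3% to 79.8% of that sum in input and 86.6% to 91.8% in IP, and it fell in IP (log2 fold change -0.56, adjusted p = 7.24e-08) and in input (-0.59, adjusted p = 1.31e-155). Of the 8 markers, 7 could be tested and 2 fell in IP, Acta2 and Myh11, while the endothelial Cldn5 was at 0 in every library. Microglial markers summed to 39.3 to 42.5 CPM in input control and 43.1 to 51.7 CPM in input ethanol libraries, and Csf1r rose in input (log2 fold change 0.22, adjusted p = 2.48e-05) and in IP (0.33, adjusted p = 0.00032). Neuronal markers summed to 133 to 141 CPM in IP control and 122 to 130 CPM in IP ethanol libraries, and to 109 to 112 CPM in input control and 101 to 107 CPM in input ethanol libraries. Of the 7 neuronal markers Stmn2 fell in both fractions (log2 fold change -0.18 in IP, -0.13 in input) and Syp rose in both (0.43 in each). Of the oligodendrocyte lineage markers Pdgfra rose in both fractions (log2 fold change 0.47 in IP, 0.56 in input) and Mbp rose in input. Of the 7 astrocyte markers, 2 rose in IP, Aqp4 (log2 fold change 0.25, adjusted p = 1.77e-12) and Sox9, and none fell, and in input 2 rose and 3 fell, among them Aldh1l1 (log2 fold change -0.13, adjusted p = 9.38e-07). The part of these shifts in the changes of the 9 genes was not tested. In such bulk libraries a change in the number of cells of a type and a change in RNA per cell cannot be told apart.

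The third question was which of these RNAs were enriched on the tagged ribosomes. Over all 18 libraries, 8 of the 9 genes differed between IP and input, 7 higher and 1 lower, where 51.0% of all genes tested were called, 25.2% higher and 25.8% lower. For 7 genes the 12 IP libraries and 6 input libraries did not overlap, against 25.0% of all genes tested. The median log2 fold change was 0.60 over the 9 genes and -0.03 over all genes tested.

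Slc38a3 was the most enriched, at 66.3 to 83.5 CPM in IP and 32.7 to 39.4 CPM in input (log2 fold change 1.02, SE 0.0257, adjusted p = 1.1e-46), close to the 1.05 of Aldh1l1, whose promoter drives the tag. Slc1a2 followed (log2 fold change 0.83, SE 0.0316, adjusted p = 1.3e-18) and then Slc25a18 with 0.78 (SE 0.0263, adjusted p = 4.62e-29). Glul had 0.62 (SE 0.0180, adjusted p = 9.28e-43), Slc1a3 0.60 (SE 0.0209, adjusted p = 1.54e-37) and Slc1a4 0.40 (SE 0.0211, adjusted p = 1.38e-27). Glud1 was 0.15 higher on the log2 scale (SE 0.0181, adjusted p = 3.17e-11), and its IP and input ranges did not overlap. Among the 7 genes higher in IP its difference was the smallest. Slc1a5 was lower in IP, at 2.64 to 3.91 CPM against 3.66 to 4.78 CPM in input, with overlapping ranges (log2 fold change -0.31, SE 0.0652, adjusted p = 3.86e-05). Slc1a1 did not pass (log2 fold change 0.06, 95% interval -0.16 to 0.28, adjusted p = 0.714). What set the size of these differences between IP and input was not tested.

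**Figure D4:**
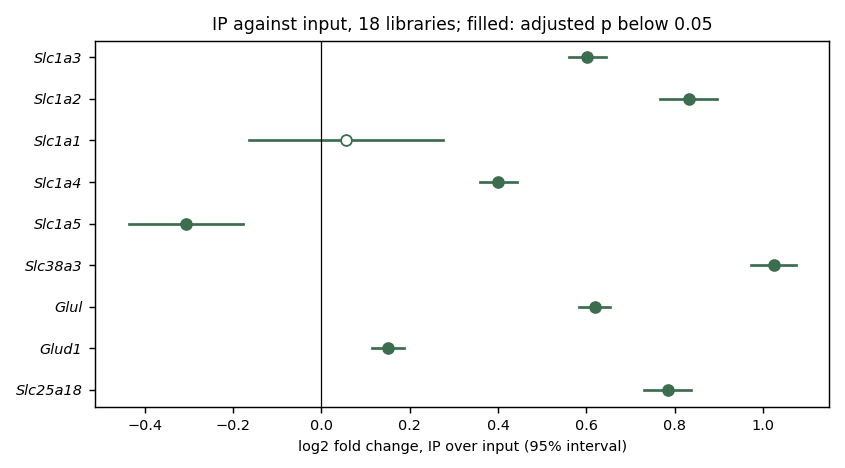
Log2 fold change of IP over input for the 9 genes across 18 libraries, with 95% intervals and filled symbols where the adjusted p was below 0.05. Slc38a3 (1.02) lies farthest right, Glud1 (0.15) near 0, Slc1a5 (-0.31) left of 0, and Slc1a1 (0.06) is open.

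The same genes were set beside a wider list of 40 other genes of glutamate and glutamine handling, of which 38 could be tested. In IP 15 of the 38 (39.5%, beside 21.4% of all genes tested) were called after ethanol, 11 higher and 4 lower, with a median log2 fold change of 0.05. In input 13 (34.2%, beside 15.0%) were called, 9 higher and 4 lower, with a median of 0.01. By function, in IP 6 of 11 tested plasma membrane transport genes passed, 5 higher and 1 lower, as did 5 of 16 enzymes, 3 higher and 2 lower. Of the GABA genes 2 of 6 rose, of the mitochondrial carriers 1 rose and 1 fell out of 3, and of the vesicular transporters 0 of 2 tested passed.

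Among the transporters of this list, Slc38a2, a sodium-coupled glutamine transporter that is regulated by amino acid supply, rose from 65.7 ± 1.64 CPM (SD, n = 6) to 85.2 ± 3.07 CPM (n = 6) in IP (log2 fold change 0.38, adjusted p = 1.57e-17), and its log2 fold change in input was 0.34 (adjusted p = 2.54e-30). Slc7a11, the light chain of the cystine-glutamate antiporter, rose by 0.30 on the log2 scale in IP (adjusted p = 8.37e-10) and, in input, by 0.19 (adjusted p = 4.95e-06). Slc3a2, its heavy chain, rose by 0.23 in IP (adjusted p = 6.82e-12) and, in input, by 0.16 (adjusted p = 1.18e-10). Slc1a6, a glutamate transporter best known from cerebellar Purkinje cells, went the other way from its relatives Slc1a2 and Slc1a3, from 7.86 ± 0.150 CPM (n = 6) to 5.78 ± 0.408 CPM (n = 6) in IP. Its log2 fold change was -0.44 both in IP (adjusted p = 4.65e-09) and again in input (adjusted p = 1.91e-06).

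Among enzymes and carriers, Slc25a12, a mitochondrial aspartate-glutamate carrier, rose by 0.27 in IP (adjusted p = 4.72e-12) and by 0.26 in input (adjusted p = 2.25e-14). Gpt2, a mitochondrial alanine aminotransferase, rose by 0.23 in IP (adjusted p = 1.72e-08) and by 0.16 in input (adjusted p = 0.00121). Psat1, a serine synthesis enzyme that uses glutamate as amino donor, fell in IP (log2 fold change -0.24, adjusted p = 7.02e-08) as well as in input (-0.27, adjusted p = 2.34e-10). These 7 genes were named because they passed the test in both fractions, so the separation of their groups adds no independent evidence. The treatments stood apart for all 7 in both fractions, against 9.96% of all genes tested in IP and 27.1% in input.

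**Figure D5:**
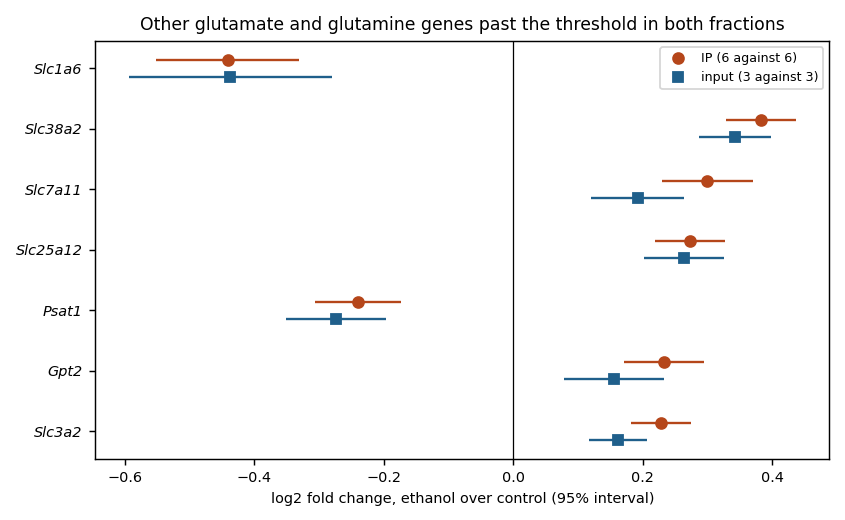
Log2 fold change of ethanol over control with 95% intervals in IP (circles) and input (squares) for 7 other glutamate and glutamine genes past the threshold in both fractions. Slc1a6 (-0.44) and Psat1 (-0.24 in IP) lie left of 0 and the other 5 right of it, with Slc38a2 farthest (0.38 in IP).

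Between fractions, 30 of the 38 genes of the wider list were called (78.9%, beside 51.0% of all genes tested), 21 higher and 9 lower in IP. Large differences were those of Gad2, a GABA-synthesizing enzyme (log2 fold change -1.999, adjusted p = 8.34e-11), and Slc6a11, a GABA transporter (-1.06, adjusted p = 1.44e-08). Both genes were scarce, with mean levels of 0.105 CPM in IP and 0.419 CPM in input for Gad2. For Slc6a11 the means were 0.419 CPM in IP and 0.872 CPM in input. Gad2 and Slc6a11 were thus lower on the tagged ribosomes, where Slc1a2 and Slc1a3 were higher.

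Across the 18 libraries, the genes whose log2 CPM followed Slc1a2 most closely among 11065 genes were Mctp1 (Pearson r = 0.991), Ank2 (0.988) and Ptprt (0.988). For Slc1a3 they were Grid1 (0.994), Ppm1l (0.993) and Add3 (0.992), and for Glul Prpf8 (0.997), Tspyl4 (0.996) and Acsbg1 (0.996). All libraries enter both sides of each correlation and fall into separate IP and input groups, so these values describe likeness only.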

How the data were processed

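RNA libraries were made with a stranded, rRNA-depleting kit from 12 IP and 6 input samples. According to the submitters, reads were trimmed with Trimmomatic, aligned to GRCm38 with STAR and converted with SAMtools. The deposited values are raw read-pair counts per gene, which the authors counted without regard to strand. The table equalled the unstranded column of the single-library count files, with 0 differing entries. On average 3.60% of pairs were multimapped and 5.50% ambiguous, and both were left out of library sizes.

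Genes with at least 10 pairs over 18 libraries were tested with edgeR 4.0.16 in R 4.3.3 (TMM scaling, robust quasi-likelihood test), with Benjamini-Hochberg adjustment over 24495 genes and a threshold of 0.05. Ethanol was tested within each fraction, IP against input with a treatment term, and the difference between fractions as an interaction. SE is the absolute log2 fold change over the square root of F. CPM is TMM-scaled. Levels per kilobase used the union of exons.

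The genes and lists were chosen with earlier results of these data known. Of the wider list, genes were named when they passed for ethanol in both fractions with an absolute log2 fold change of at least 0.2 in either, together with the 3 of largest difference between IP and input. For Slc1a2, Slc1a3 and Glul the 3 genes of highest r with a mean of at least 5 CPM were named. Of the genes so named, 2 are not reported here. Pc was matched to Pcx through RefSeq synonyms.

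The deviations of input and IP of 1 dish correlated only weakly (r = 0.034 to 0.206 over 6 dishes), the dish being stated by the labels. The scripts were tested on simulated counts. Alternatives were DESeq2 1.42.0, other scaling and filters, strand, a fold threshold of 1.2 (glmTreat), blocks, GC and length trends, and leaving out each library.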

Additional observations from a re-analysis of the deposited data

Results flagged for a closer look

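In 18 groups of 6 IP libraries (9 genes, 2 treatments), 3 had an extreme library whose gap to its neighbour exceeded Dixon's limit, and chance flags about 1 group in 20. Slc1a1 stood at 1.437 CPM in IP ethanol replicate 1, with a gap of 0.649 of the group's range. Slc1a2 stood at 150.5 CPM in the same library, with a gap of 0.661 of the range. Slc25a18 stood lowest at 112.3 CPM in IP ethanol replicate 5, with a gap of 0.768 of the range. Without the library concerned, the log2 fold change in IP was -0.12 for Slc1a1, which again gave no call, 0.16 for Slc1a2 and 0.35 for Slc25a18, both still called.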

How the results depend on the processing

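Over the alternatives, no member changed direction of a call. Leaving out each library gave 5 to 6 members called for ethanol in IP, 5 to 6 in input and 8 for IP against input. Against a fold of 1.2 (glmTreat), 0 members were called for ethanol in IP and 0 in input, 2 and 0 of the wider list, and 95 and 55 of all genes, and for IP against input 16 of the wider list and 4936 of all genes, where Slc1a5 and Glud1 lost their calls. With replicates 1 to 3 alone, 2995 genes were called for ethanol in IP. In 1 model over 18 libraries, 2175 were called in input, and Glul was lost there (adjusted p = 0.143). For the difference between fractions, where edgeR called 0 genes, DESeq2 called 2, the dish block (the replicate block in 12 libraries) 102, the block with GC and length trends removed 44, and leaving out each library 0 to 1 (1 without IP ethanol replicate 3), with 0 members in each.

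Same-numbered control and ethanol dishes correlated at r = -0.149 to 0.399 in IP over 6 pairs and at 0.0368 to 0.0736 in input over 3 pairs. Of 12 IP libraries, 4 correlated best with their own number. These values do not decide whether the dishes paired weakly by number. With that number as a replicate block 5782 genes were called in IP and 3829 in input, and the sole member call that changed was Slc1a5 in IP (adjusted p = 0.0439). With the dish as a replicate block, 11659 genes were called between IP and input and no member call changed. Depth limits Slc1a1 most, at 78 to 125 pairs per input library, and next Slc1a5. The cause of the differences between settings was not tested.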
